A study of Mus musculus with 6 samples.

Results

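The liver and gut miRNAs miR-122-5p (MIMAT0000246), miR-192-5p (MIMAT0000517) and miR-194-5p (MIMAT0000224), were followed through 6 small RNA libraries of mouse serum. They were found in the files by their miRBase identifiers, with no threshold on read counts, and are 3 of the 788 miRNAs with at least 1 read in any library. Serum came from healthy 129/SVj mice of both sexes, aged 2 to 9 months and sedated with tribromoethanol for the blood draw, and RNA was isolated from serum of single mice with the miRNeasy serum/plasma kit. The groups differed in the library preparation kit: NEBNext Multiplex, TruSeq v2 or TailorMix v2, with 2 libraries for each kit. Serum is numbered 1 and 2 in every kit, and the labels do not say whether the same mice recur across kits. Kit and animal therefore cannot be told apart from the labels, and p-values measure the spread between these libraries. The 6 libraries held 165139 to 351758 miRNA reads, and miRNA reads made up 0.856% to 3.76% of the reads annotated as any small RNA. A level is given here as the percentage of a library's miRNA reads unless another scale is named.

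A mature miRNA is cut from a hairpin precursor and guides Argonaute proteins to messenger RNAs, mainly through its seed, bases 2 to 8 from the 5′ end. miR-122-5p is the dominant miRNA of hepatocytes, where it helps to control cholesterol and lipid metabolism, and its level in serum is widely used as a sign of liver damage. miR-192-5p and miR-194-5p are enriched in epithelia of liver, intestine and kidney, and are cut from neighbouring hairpins of common primary transcripts. Small RNA kits join adaptors to both ends of an RNA before reverse transcription and PCR. No tissue was sequenced beside the serum, so the tissue of each miRNA is background and was not measured.

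The sequences of miR-192-5p and miR-194-5p, from RefSeq on mouse build GRCm38.p6, are shown to make clear that these neighbours on the genome share neither their seed nor their ends. miR-215-5p, encoded beside the other copy of miR-194, is shown because it has the seed of miR-192-5p. The seed is in capitals.

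miR-192-5p: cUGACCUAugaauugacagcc

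miR-215-5p: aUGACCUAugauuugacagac

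miR-194-5p: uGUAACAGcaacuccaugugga

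miR-192-5p has 21 bases, a GC content of 47.6% and C at both ends. miR-194-5p has 22 bases, a GC content of 45.5%, U at its 5′ end and A at its 3′ end. miR-192-5p and miR-215-5p have 18 of 21 bases in common without gaps, and they are the 2 miRNAs with this seed among 1679 mature miRNAs in the table, while no other entry has the seed of miR-194-5p. The deposited lists give miRBase identifiers without names, and the identifiers of miR-215-5p and of the 3′ arms were not matched, so no counts are given for them.

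The hairpins show how close together miR-192 and one copy of miR-194 are encoded, with the mature 5′ arm in capitals. Mir194-2 (chr19:6264643-6264728, plus strand) ends 115 bases before Mir192 (chr19:6264844-6264932, plus strand), and GENCODE M21 places no other gene over either of them. Mir194-1 (chr1:185313319-185313385, plus strand) ends 195 bases before Mir215 (chr1:185313581-185313692). Both of the latter lie inside the noncoding gene 2010103J01Rik and opposite to Iars2, which encodes a mitochondrial isoleucyl-tRNA synthetase. Mir194-1 overlaps no exon of these genes and Mir215 overlaps an exon of 2010103J01Rik.

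Mir192: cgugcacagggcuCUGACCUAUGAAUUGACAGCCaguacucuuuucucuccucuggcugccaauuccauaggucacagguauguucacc

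Mir194-2: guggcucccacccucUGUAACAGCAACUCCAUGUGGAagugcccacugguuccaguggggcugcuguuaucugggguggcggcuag

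Mir194-1: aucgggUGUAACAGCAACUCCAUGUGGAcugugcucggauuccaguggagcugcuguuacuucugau

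The mature miR-194-5p is identical from both hairpins, so its reads cannot be assigned to either gene.

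The first comparison asks what share of the miRNA reads each miRNA took with each kit. All 3 miRNAs had reads in every library, and the order of the kits by mean share was the same for miR-122-5p and miR-194-5p (NEBNext, TailorMix, TruSeq) but not for miR-192-5p (TruSeq, NEBNext, TailorMix). miR-122-5p nearly disappeared with TruSeq, miR-192-5p was lowest with TailorMix, and miR-194-5p was scarce throughout and highest with NEBNext.

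For miR-122-5p, the NEBNext libraries had 9018 and 6751 reads, the TailorMix libraries 3511 and 3572 reads, and the TruSeq libraries 82 and 50 reads. Its share of miRNA reads was thus 4.01% and 4.09% with NEBNext, 1.81% in both TailorMix libraries, and 0.0233% and 0.0177% with TruSeq. The 3 kits did not overlap, and the liver miRNA was low in both TruSeq libraries alone. Such separation is common here: 70.8% of the 360 tested miRNAs reached the smallest possible p of the exact permutation test below. The same limit applies to the kits that do not overlap for miR-192-5p and miR-194-5p. In the order of all miRNAs of a library, from the most to the least abundant, it stood at place 5 and 6 with NEBNext, at place 12 in both TailorMix libraries, and at place 91 and 98 with TruSeq. The means were 4.05% ± 0.0549 with NEBNext, 1.81% ± 0.000428 with TailorMix and 0.0205% ± 0.00395 with TruSeq (SD, n = 2 each). The NEBNext mean was 197 times and the TailorMix mean 88.4 times that of TruSeq. In the shallowest count, 50 reads in TruSeq replicate 2, the 95% Wilson interval of the share ran from 0.0134% to 0.0234%. That of TruSeq replicate 1, 0.0188% to 0.0289%, overlapped it, while the nearest TailorMix interval began at 1.76%. Intervals cover counting error only, since reads that carry no molecular identifier can be PCR copies of a single molecule.

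For miR-192-5p, the TruSeq libraries had 9666 and 8072 reads, the NEBNext libraries 5330 and 3963 reads, and the TailorMix libraries 811 and 853 reads. Its share was 2.75% and 2.86% with TruSeq, 2.37% and 2.40% with NEBNext, and 0.419% and 0.433% with TailorMix. The TruSeq and NEBNext libraries lay near each other without overlapping, and both TailorMix libraries were well below them. The means were 2.80% ± 0.0804 with TruSeq, 2.39% ± 0.0208 for NEBNext and 0.426% ± 0.00992 with TailorMix (SD, n = 2 each). The TruSeq mean exceeded that of NEBNext by 1.18-fold and that of TailorMix by 6.58-fold. miR-192-5p held place 9 and 8 among the miRNAs of the TruSeq libraries, 13 and 12 with NEBNext, and 35 in both TailorMix libraries.

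For miR-194-5p, the NEBNext libraries had 141 and 89 reads, the TruSeq libraries 20 and 24, and the TailorMix libraries 20 and 23. Its share was 0.0627% and 0.0539% with NEBNext, 0.0103% and 0.0117% with TailorMix, and 0.00569% and 0.00851% with TruSeq. Both NEBNext libraries lay above all the others, whereas the TruSeq and TailorMix libraries were neighbours in this order. The TailorMix shares were the higher ones, without overlap of the shares themselves. The Wilson interval of TruSeq replicate 1, 0.00368% to 0.00878%, left out the shares of both TailorMix libraries, while that of TruSeq replicate 2, 0.00572% to 0.0127%, covered them. The TailorMix intervals, 0.00669% to 0.0160% and 0.00778% to 0.0175%, each overlapped both TruSeq intervals. The means were 0.0583% ± 0.00623 with NEBNext, 0.0110% ± 0.000950 with TailorMix and 0.00710% ± 0.00200 with TruSeq (SD, n = 2 each). A count of 3, taken as the detection floor, corresponds to between 0.000853% and 0.00182% of miRNA reads, below every value of the 3 miRNAs.

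**Figure D1:**
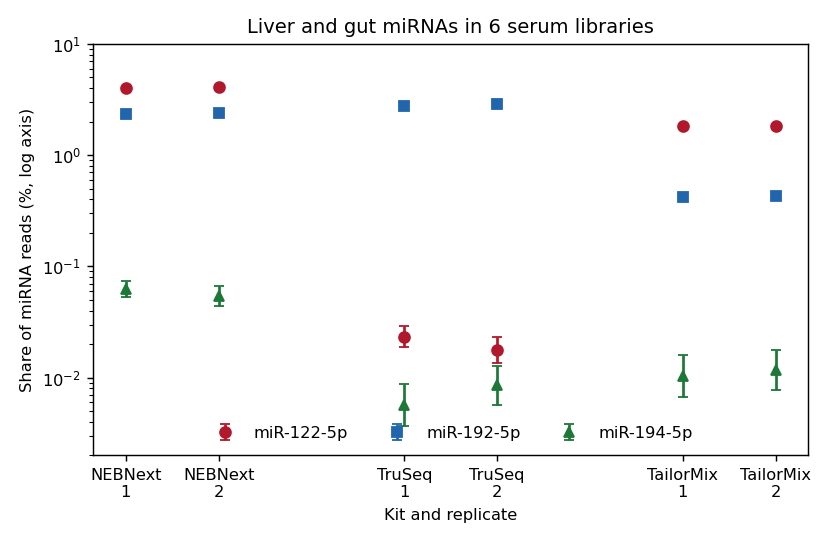
Share of miRNA reads (percent, log axis) of miR-122-5p, miR-192-5p and miR-194-5p in each of the 6 libraries, with 95% Wilson intervals as bars (hidden by the symbol where narrow). miR-122-5p falls from 4.01% and 4.09% with NEBNext to 0.0233% and 0.0177% with TruSeq, while miR-192-5p is lowest with TailorMix, at 0.419% and 0.433%.

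Shares were compared between kits over all 15 divisions of the 6 libraries into 3 pairs (exact permutation test), which cannot give a p below 0.0667. The F ratio of the log2 shares was the highest of all groupings for miR-122-5p, miR-192-5p and miR-194-5p (exact permutation test, p = 0.0667 each, 0.0800 after Benjamini-Hochberg adjustment over 3 shares and 3 ratios). The same smallest p was reached by 70.8% of the 360 miRNAs tested, so that these values do not set the liver and gut miRNAs apart from other serum miRNAs.

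Together the 3 miRNAs took 6.44% and 6.54% of miRNA reads in NEBNext libraries. The sum was 2.78% and 2.89% for TruSeq and 2.24% and 2.26% for TailorMix. Within this sum the make-up differed more than the total. miR-122-5p provided 62.2% and 62.5% of the 3 miRNAs' reads with NEBNext and 80.9% and 80.3% with TailorMix, but 0.839% and 0.614% with TruSeq. There, miR-192-5p provided 99.0% and 99.1%.

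Ratios of miRNAs within a library do not depend on library size or normalization. The log2 ratio of miR-122-5p to miR-192-5p was 0.76 and 0.77 for NEBNext, 2.11 and 2.07 for TailorMix, and -6.88 and -7.33 for TruSeq. Hence miR-122-5p exceeded miR-192-5p by 1.70-fold with NEBNext and 4.26-fold with TailorMix, whereas miR-192-5p exceeded miR-122-5p by 138-fold with TruSeq. From TruSeq to TailorMix the ratio rose by 9.20 on the log2 scale (standard error 0.23), which is 587-fold. The exact permutation p over 3 kits was 0.0667 (adjusted 0.0800).

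The log2 ratio of miR-192-5p to miR-194-5p, whose hairpins stand side by side on chromosome 19, was 5.24 and 5.48 with NEBNext and 5.34 and 5.21 with TailorMix. With TruSeq it was 8.92 and 8.39. The means correspond to 41.0 and 38.8 reads of miR-192-5p for each read of miR-194-5p with NEBNext and TailorMix, and to 403 with TruSeq. The NEBNext and TailorMix means differed by 0.081 (standard error 0.13), less than the spread between their replicates, while both TruSeq libraries lay above the other 4. Because NEBNext and TailorMix overlapped, the kit grouping was not the most extreme (exact permutation p = 0.133, adjusted 0.133). The mean log2 ratio of miR-122-5p to miR-194-5p was 6.12 ± 0.17 with NEBNext, 7.37 ± 0.13 with TailorMix and 1.55 ± 0.69 with TruSeq (SD, n = 2 each, exact permutation p = 0.0667, adjusted 0.0800). The counting error of this ratio was 0.36 on the log2 scale in each TruSeq library, below the SD of 0.69. With TailorMix it was 0.32 and 0.30, above the SD of 0.13. The source of the wide SD with TruSeq was not tested.

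**Figure D2:**
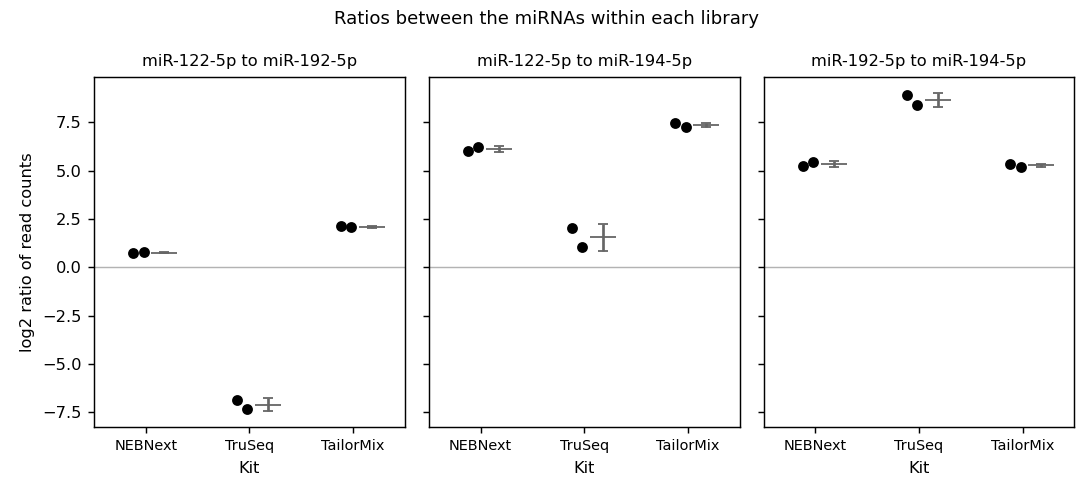
The log2 ratio of read counts for each pair of the 3 miRNAs, by kit. Points are libraries, and the bar beside them is the mean with its SD (n = 2). miR-192-5p to miR-194-5p lies between 5.21 and 5.48 in the 4 NEBNext and TailorMix libraries and at 8.92 and 8.39 with TruSeq.

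As a second yardstick the 3 miRNAs were set against miR-16-5p (MIMAT0000527), a miRNA abundant in blood cells, which the study took as a stable serum miRNA. The mean log2 ratio of miR-122-5p to miR-16-5p was 3.39 ± 0.094 with NEBNext, -1.47 ± 0.050 with TailorMix and -7.21 ± 0.14 with TruSeq (SD, n = 2 each). For miR-192-5p it was 2.62 ± 0.087, -3.56 ± 0.084 and -0.10 ± 0.18 in the same order. For miR-194-5p it was -2.74 ± 0.080, -8.83 ± 0.17 and -8.76 ± 0.55. Thus both miR-122-5p and miR-192-5p had more reads than miR-16-5p with NEBNext, neither did so in the mean with the other kits, and the share of miR-16-5p itself ranged from 0.374% to 5.14% over the libraries. These ratios were chosen with the values known and were not tested.

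Next, a quasi-likelihood model (edgeR) was fitted to the counts of the 360 miRNAs that reached 4 counts in 2 or more libraries, with Benjamini-Hochberg adjustment. TMM normalization (trimmed mean of M values) was used, which sets the scale on the assumption that most miRNAs stay level. In the following, a miRNA is called at an adjusted p under 0.05. The log2 fold change of each miRNA was also compared between plain shares and TMM. The median of these differences (plain shares minus TMM) was -1.05 for TruSeq over NEBNext, -0.64 for TailorMix over NEBNext and 0.41 for TailorMix over TruSeq. Fold changes below are therefore relative to the TMM scale. On that scale 247 of 360 miRNAs were called for TruSeq over NEBNext, 279 for TailorMix over NEBNext and 254 for TailorMix over TruSeq. The assumption of mostly level miRNAs is thus doubtful here.

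Between TruSeq and NEBNext, 1 of the 3 miRNAs was higher in TruSeq, where 26.1% of all tested miRNAs were called, and 2 were higher in NEBNext, where 42.5% were called. The log2 fold change of miR-122-5p was -6.53 (standard error 0.14, adjusted p = 1.04e-28), the 18th lowest of 360. miR-192-5p rose by 1.30 (standard error 0.094, adjusted p = 1.97e-14) and miR-194-5p fell by 2.0 on the log2 scale (standard error 0.26, adjusted p = 2.15e-08). Their median was -2.0, against -0.52 for all miRNAs. On plain shares miR-192-5p kept its direction with a log2 fold change of 0.23 (adjusted p = 0.0153).

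Between TailorMix and NEBNext, 0 of the 3 were higher in TailorMix, against 39.2% of all miRNAs, and all 3 were higher in NEBNext, against 38.3%. miR-192-5p fell by 1.83 (standard error 0.098, adjusted p = 8.68e-18) and miR-194-5p by 1.76 (standard error 0.26, adjusted p = 3.26e-07), nearly the same distance. The log2 fold change of miR-122-5p was -0.51 (standard error 0.10, adjusted p = 4.34e-05), a small one in comparison, at place 331 of 360 by absolute size. This call was lost without TailorMix replicate 1 (log2 fold change -0.24, adjusted p = 0.0985) and was reversed with all annotated reads as library size (0.87, adjusted p = 3.83e-13). On the latter scale miR-192-5p was still called, with a smaller log2 fold change of -0.45 (adjusted p = 0.000284). miR-194-5p no longer passed the test there (-0.37, adjusted p = 0.242).

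Between TailorMix and TruSeq, 1 of the 3 was higher in TailorMix, where 41.7% of all miRNAs were called, and 1 was higher in TruSeq, where 28.9% were called. miR-122-5p rose by 6.03 (standard error 0.14, adjusted p = 2.81e-28) and miR-192-5p fell by 3.13 (standard error 0.10, adjusted p = 4.13e-24), so that these miRNAs moved in opposite directions. miR-194-5p was not called, with a log2 fold change of 0.24 and a 95% interval from -0.46 to 0.94 (adjusted p = 0.536). With all annotated reads as library size it was called higher in TailorMix (0.97, adjusted p = 0.0105). The 3 contrasts share libraries, so their values are not independent of each other.

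**Figure D3:**
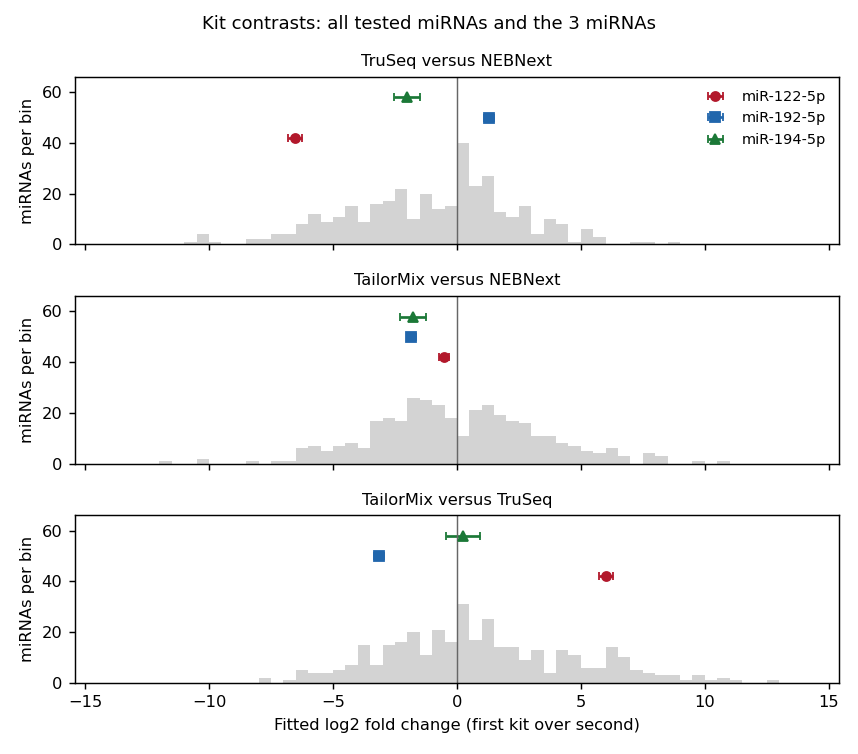
Fitted log2 fold changes of the 360 tested miRNAs (grey histogram, bins of 0.5 on the log2 scale) in the 3 contrasts, with the 3 liver and gut miRNAs as symbols with 95% intervals (their height has no meaning). miR-122-5p lies at -6.53 for TruSeq over NEBNext and at 6.03 for TailorMix over TruSeq, while miR-194-5p has an interval across 0 in the latter.

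The share of called miRNAs that were higher in the first kit also moved with the scale. It was 38.1% for TruSeq over NEBNext with TMM, 24.2% on plain miRNA shares and 51.1% on all annotated reads. For TailorMix over NEBNext it was 50.5%, 38.6% and 74.6%, and for TailorMix over TruSeq 59.1%, 66.3% and 70.6%.

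Scaling to all annotated reads asks how many reads of a miRNA a kit delivered for a given number of annotated reads. miR-122-5p then had 343 and 398 reads per 1000000 annotated reads with NEBNext, 682 and 674 with TailorMix, and 7.06 and 5.31 with TruSeq. On this scale both TailorMix libraries lay above both NEBNext libraries, the opposite of their order by share of miRNA reads, while TruSeq stayed lowest. miR-192-5p had 832 and 857 such reads with TruSeq, 203 and 233 with NEBNext, and 158 and 161 with TailorMix, in the same order as before. Its gap between NEBNext and TailorMix narrowed from 5.60-fold by share of miRNA reads to 1.37-fold. miR-194-5p had 5.37 and 5.24 with NEBNext, 3.89 and 4.34 with TailorMix, and 1.72 and 2.55 with TruSeq. The gap between NEBNext and TailorMix narrowed there from 5.30-fold to 1.29-fold. Apart from the unit, these values are a miRNA's share of miRNA reads times the percentage of miRNA among annotated reads. That percentage rose from NEBNext (0.856% and 0.972%) to TailorMix (3.76% and 3.71%). The narrower gaps and the changed order for miR-122-5p therefore follow by arithmetic. On this scale miR-192-5p and miR-194-5p still fell from NEBNext to TailorMix, while miR-122-5p rose. Why the kits differed in that percentage was not tested.

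**Figure D4:**
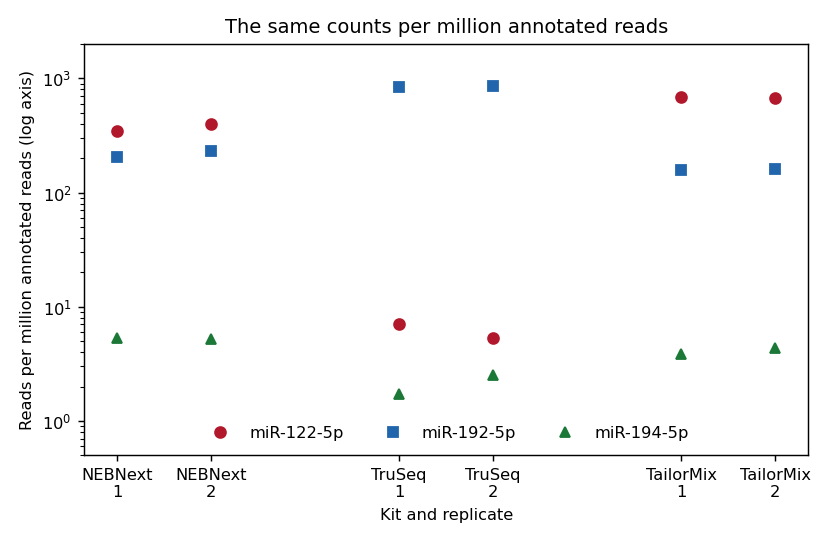
Reads per 1000000 annotated reads (log axis) of the 3 miRNAs in each library. miR-122-5p is highest with TailorMix, at 682 and 674, and miR-192-5p with TruSeq, at 832 and 857.

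The replicates of a kit differed little for miR-122-5p and miR-192-5p where these had many reads. The log2 ratio of replicate 2 to replicate 1 in share was 0.028 for miR-122-5p with NEBNext and -0.00048 with TailorMix, but -0.40 with TruSeq, where few reads were counted. For miR-192-5p the NEBNext pair gave 0.018, the TruSeq pair 0.059 and the TailorMix pair 0.048. For miR-194-5p these were -0.22, 0.58 and 0.18 in the same order.

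Across the 6 libraries, the log2 levels of the 3 miRNAs did not run in parallel. Pearson's r, given as a description over 6 libraries that fall into 3 pairs by kit, was -0.44 between miR-122-5p and miR-192-5p, 0.75 between miR-122-5p and miR-194-5p, and 0.24 between miR-192-5p and miR-194-5p. For each of them, the 3 most alike miRNAs were picked by the highest r among all others of the 360 tested. Such a pick favours high values, so these are not compared with the r above. They lay between 0.993 and 0.999 with miR-122-5p, between 0.991 and 0.997 with miR-192-5p, and between 0.986 and 0.994 with miR-194-5p. The closest to miR-122-5p was MIMAT0004750, with 155 and 122 reads with NEBNext, 42 and 50 with TailorMix and 0 in both TruSeq libraries. The closest to miR-192-5p was MIMAT0000221, at 1.89% and 1.65% of miRNA reads for NEBNext, 1.79% and 1.93% for TruSeq, and 0.194% and 0.198% for TailorMix. The closest to miR-194-5p was MIMAT0000158, at 0.800% and 0.815% for NEBNext, 0.0847% and 0.102% for TruSeq, and 0.141% and 0.132% for TailorMix. Libraries of the same kit share their ligation and amplification chemistry, and its part in these likenesses was not tested.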

How the data were processed

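Small RNA of mouse serum was sequenced in 6 libraries (3 kits, 2 libraries each). The deposited values are read counts per miRNA, and per distinct sequence of other small RNAs, which the authors made by trimming adaptors (cutadapt 1.8.1), filtering on length and quality, mapping with Bowtie 1.1.2 without mismatches and matching positions on GRCm38 to miRBase, UCSC and Ensembl, without normalization. How reads with several positions were counted is not given in the sources used here. A miRNA not listed was taken as 0.

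Shares, ratios and exact permutation tests (two-sided by construction) were computed with Python 3.11.15, pandas 2.3.3 and scipy 1.17.1. edgeR 4.0.16 (R 4.3.3) was fitted to all 6 libraries with kit as the only term, on 360 miRNAs that reached 4 counts in 2 or more libraries. In simulated counts for TruSeq versus NEBNext, 78 of 98 tested miRNAs with 4-fold changes were called, none in the wrong direction, and 1 of 257 unchanged. The simulation gave all miRNAs and kits a single spread and changed 200 of 788 miRNAs in random directions. In the data 247 of 360 were called, so the simulated rates need not hold for these fits. Replicates differed beyond counting noise (chi-square over its degrees of freedom: NEBNext 2.16, TruSeq 15.0, TailorMix 1.59), so each library was counted as a sample.

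The miRNAs and lists were chosen with earlier results of these data known. Besides the 3 miRNAs, the rule named miR-16-5p, the 3 most alike miRNAs of each (of which the first is printed) and the leading miRNA of each kit. The latter were MIMAT0000530 with NEBNext (8.73% of miRNA reads), MIMAT0000208 with TruSeq (19.3%) and MIMAT0000521 with TailorMix (15.7%). Other arms of the hairpins, miR-215 and lists of liver, gut and blood cell miRNAs were planned by name and are not analysed here, because no table paired names with identifiers. Alternatives were other scalings, DESeq2 1.42.0, other count filters, fits of 4 libraries, a replicate block and each library left out.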

Additional observations from a re-analysis of the deposited data

How the results depend on the processing

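Of 126 refitted log2 fold changes of the 3 miRNAs, 122 kept their side of the threshold, with the same direction or uncalled both times. With all annotated reads as library size, miR-122-5p was reversed for TailorMix over NEBNext (0.87), miR-194-5p no longer passed there (-0.37) and passed for TailorMix over TruSeq (0.97). Without 1 library, miR-122-5p for TailorMix over NEBNext ranged from -0.74 to -0.24, the latter, without TailorMix replicate 1, not called, and uncalled miR-194-5p for TailorMix over TruSeq ranged from -0.13 to 0.50. Requiring 10 counts in all 6 libraries, which left fewer miRNAs to test, reduced the calls from 247 to 91, from 279 to 101 and from 254 to 98 for TruSeq over NEBNext, TailorMix over NEBNext and TailorMix over TruSeq. DESeq2 called 175, 196 and 204. As a percentage of all annotated reads, in the order NEBNext, TruSeq and TailorMix, miR-122-5p took 0.0370%, 0.000618% and 0.0678%, miR-192-5p 0.0218%, 0.0844% and 0.0159%, and miR-194-5p 0.000531%, 0.000213% and 0.000411%. Without the most abundant miRNA in the denominator, miR-122-5p took 4.44%, 0.0254% and 2.15%, miR-192-5p 2.61%, 3.48% and 0.505%, and miR-194-5p 0.0131% with TailorMix. Without miRNAs under 4 counts, miR-122-5p took 1.82% with TailorMix. All 36 alternative ratios stayed within 1 SD, by construction for those that leave out 1 library of a pair or pool both. The replicate number gave no firm pairing: the difference between replicates, across 90 miRNAs, correlated at 0.138, 0.179 and 0.038 between kits. The replicate block left all 9 fold changes on their side of the threshold, with -6.54 for miR-122-5p from NEBNext to TruSeq. Counts of 20 to 24 limit miR-194-5p with TruSeq and TailorMix.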
